A study of Mus musculus with 29 samples.

Results

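The kainate receptor genes Grik1 to Grik5 and the genes of their auxiliary subunits, Neto1 and Neto2, were described across sorted populations of mouse retinal neurons. They were chosen by name, as the 7 entries of 24062 in the RNA-seq table whose gene symbol is that of a kainate receptor or Neto subunit. The RNA-seq data comprised 15 libraries, 3 from each of 5 populations isolated by fluorescence-activated cell sorting (FACS). Open chromatin was measured by ATAC-seq in 12 libraries, 2 from each of 6 populations.

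Pan-bipolar cells (pan-BC) were sorted for RNA at postnatal days 44 to 47 from Otx2-GFP+/- retinas, in which a GFP cassette is knocked into 1 allele of Otx2. ON bipolar cells (ON-BC) and OFF bipolar cells (OFF-BC) came from Otx2-GFP+/-; Grm6-YFP+/+ retinas at postnatal days 42 to 48. In that line a YFP transgene under the Grm6 promoter marks ON-BCs, so that OFF-BCs are the bipolar cells without YFP, and they passed the sorter 2 times where the other populations described here passed it once. Between ON-BCs and OFF-BCs, cell class and the second sort therefore cannot be told apart. Between pan-BCs and either of them, cell population and mouse line cannot be told apart in the RNA data. All ATAC-seq bipolar libraries came from the Otx2-GFP+/-; Grm6-YFP+/+ line, at postnatal days 42 to 46. Every bipolar library therefore carries the Otx2-GFP allele. Rods were Nrl-eGFP cells, blue cones were photoreceptors of Nrl-eGFP;NrlKO mice, whose rods are converted to a cone-like fate, and green cones (ATAC-seq only) were Opn1mw-GFP cells. All photoreceptors were taken at postnatal day 56 and re-analyzed from an earlier study, so that cell class, age, mouse line and study cannot be told apart. Each library pooled cells of several retinas.

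Kainate receptors are tetrameric glutamate-gated cation channels. The subunits GluK1 to GluK3, encoded by Grik1, Grik2 and Grik3, form channels on their own, whereas GluK4 and GluK5, encoded by Grik4 and Grik5, bind agonist with high affinity and need one of the former to make a working channel. Neto1 and Neto2 are single-pass membrane proteins that associate with the receptor and slow its desensitization and deactivation. In the retina, photoreceptors release glutamate in the dark. OFF-BCs answer it through ionotropic receptors, among them kainate receptors, while ON-BCs answer it through the metabotropic receptor mGluR6, encoded by Grm6.

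RNA levels are given as normalized read counts, that is, reads per gene divided by 1 size factor per library. Libraries held 12329548 to 26266746 counted reads. Levels of different genes are compared only per kb of exon. A gene was called different between populations when limma rejected a log2 fold change of 1 or less in size at a Benjamini-Hochberg adjusted p of 0.05 over all 14024 genes tested. Grik3 and Grik4 did not pass the filter on low counts, so that 5 of the 7 genes were tested. Since these are bulk libraries, a larger number of expressing cells and more RNA per cell cannot be told apart. The p-values measure the spread between sorted pools.

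The sorted populations carried the markers of their labels, with some admixture. The ON bipolar markers Grm6, Isl1, Trpm1, Gng13 and Nyx summed to 131821 to 144988 normalized counts in ON-BCs and to 15611 to 23741 in OFF-BCs. Most of the OFF-BC sum was Gng13 (mean 11880) and Trpm1 (6297). Grm6 had a mean of 268 in OFF-BCs against 13499 in ON-BCs, and Isl1 611 against 26264. Gng13 and Nyx were not called between the populations (limma adjusted p = 0.105 and 0.0676). The OFF bipolar markers Tacr3, Vsx1, Bhlhe22, Irx6 and Esam summed to 22318 to 23017 in OFF-BCs and to 1022 to 1308 in ON-BCs. Of these 5, Vsx1 went against its list, since its mean in ON-BCs was 339% of that in OFF-BCs. Over the 9 bipolar libraries the 5 rod markers summed to 861 to 22921, lowest in OFF-BCs, and the 5 horizontal cell markers to 27.2 to 123, with 38.0 to 103 in OFF-BCs and 84.6 to 123 in ON-BCs. The sum of the 5 amacrine cell markers was higher in OFF-BCs, at 731 to 925, than in ON-BCs, at 226 to 347. Slc6a9 made up most of this difference, with means of 566 against 159, while Gad1 went the other way (27.7 against 37.7). The mean of Slc6a9 was higher still in rods, at 2271, and in blue cones, at 1476. The sum of the 5 Müller glia markers was also higher in OFF-BCs, at 2439 to 3252 against 852 to 1197. Sox9 made up most of that difference (1400 against 25.1), while Rlbp1 (132 against 176) and Aqp4 (20.3 against 51.5) went the other way. The 5 ganglion cell markers summed to 46.9 to 83.9 in OFF-BCs, where Slc17a6 and Pou4f2 had no read, and to 102 to 171 in ON-BCs. The part of these cells in the differences described below was not tested. The third OFF-BC library stood apart. Its 5 cone markers summed to 103211 against 34435 and 29244 in the other OFF-BC libraries, and its Grm6 level was 593 against 145 and 64.9. The same cone markers summed to 44347 to 70432 in pan-BCs and to 4975 to 5760 in ON-BCs.

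Grik1 was by far the most abundant of the 7 genes in bipolar cells, and nearly all of its RNA was found with OFF-BCs. It encodes GluK1, a channel-forming subunit, and lies on the minus strand of chr16:87895901-88290216 (GRCm38). The 3 OFF-BC libraries had 50164, 37690 and 28558 normalized counts of Grik1, and the 3 ON-BC libraries had 458, 568 and 382. The ranges lay far apart, and the mean in OFF-BCs (38804 ± 10846, SD, n = 3) was 82.7-fold that in ON-BCs (469 ± 93.8, SD, n = 3). On the log2 scale with a pseudocount of 1, ON-BCs were lower by a fitted log2 fold change of -6.35 (SE 0.45, limma adjusted p = 2.26e-07). The lowest of the OFF-BC values was that of the third library, which also had the highest cone and Grm6 levels. Without that library the log2 fold change kept its sign and its call, and over the 6 fits that left out 1 library it ranged from -6.55 to -6.14. Whether the admixture had a part in the spread was not tested.

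Pan-BCs, which hold both classes, had 6096, 7308 and 7833 normalized counts of Grik1. This is 18.2% of the OFF-BC mean and lay between the ranges of the other bipolar populations. The 5 OFF bipolar markers had shares of 16% (Irx6), 17.2% (Esam), 33.8% (Tacr3), 35.8% (Bhlhe22) and 277% (Vsx1) of their OFF-BC means in pan-BCs. In ON-BCs, Grik1 stood at 1.21% of its OFF-BC mean, beside 1.98% for Irx6, 0.422% for Esam, 0.625% for Tacr3, 5.64% for Bhlhe22 and 339% for Vsx1. The part of residual OFF-BCs in the Grik1 level of ON-BCs was not tested.

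Grik1 was lower in photoreceptors, and it differed between rods and blue cones. Rod libraries had 18.4, 29.7 and 131 normalized counts and blue cone libraries had 345, 378 and 432. The ranges did not overlap, and the fitted log2 fold change of rods against blue cones was -3.16 (SE 0.45, limma adjusted p = 0.000912). It was -3.98 without the third rod library, and -3.98 to -2.59 over the fits that left out 1 library. Blue cones in turn overlapped ON-BCs, whose mean was 1.22-fold higher. The highest rod value came from the third rod library, where the ON bipolar markers summed to 531 against 224 and 273 in the other rod libraries and the OFF bipolar markers to 80.0 against 18.4 and 31.8. In blue cones the OFF bipolar markers summed to 79.0, 149 and 275, so that the library with the most Grik1 was also the one with the highest sum. These markers moved with Grik1 in both photoreceptor populations, and their part in its level was not tested. Against pan-BCs the difference was larger, with log2 fold changes of 7.36 over rods (limma adjusted p = 9.74e-10, 8.17 without the third rod library) and 4.20 over blue cones (limma adjusted p = 7.8e-06).

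Grik2 encodes GluK2, a channel-forming subunit like GluK1, and lies on the minus strand of chr10:49093680-49788754. Its RNA was much scarcer than that of Grik1 but was divided between the bipolar populations in the same direction. OFF-BC libraries had 93.9, 177 and 153 normalized counts and ON-BC libraries 0, 7.84 and 5.13, with pan-BCs in between at 23.4, 25.2 and 15.9. The OFF-BC mean was 32.7-fold that of ON-BCs, and the fitted log2 fold change was -5.18 (SE 0.62, limma adjusted p = 9.77e-05). It was -4.22 without the first ON-BC library, which had no read of Grik2, and -5.80 without the second, and kept its call over all 6 fits that left out 1 library. No read of Grik2 was counted in any of the 6 photoreceptor libraries. Set against a floor of 3 reads over the rod libraries together, Grik2 was at least 21.0-fold higher in pan-BCs and at least 138-fold higher in OFF-BCs than in rods. The like bounds over blue cones were 28.7-fold and 188-fold.

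Grik3 encodes GluK3 (plus strand of chr4:125490696-125714173) and Grik4 encodes the high-affinity subunit GluK4 (minus strand of chr9:42520412-42944371). Neither was tested. Grik3 had at most 3.92 normalized counts in any of the 9 bipolar libraries, where reads were 0 in 4 of them. It was highest in blue cones, at 19.6, 9.87 and 2.22, a range that overlapped that of rods (2.16 to 7.17). Grik4 had 0 reads in all 6 photoreceptor libraries. It had 4.13, 4.90 and 6.16 normalized counts in ON-BCs and 1.12, 1.20 and 1.10 in OFF-BCs, the last being 1 read in each library. Thus the ON-BC range lay above that of OFF-BCs, on 15 and 3 reads in all. Exons of Grik4 and of Grik1 overlap annotated antisense RNAs, and the library kit did not mark the strand.

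Grik5 encodes the high-affinity subunit GluK5 (minus strand of chr7:25009849-25072369). Unlike Grik1 and Grik2, it was present at close levels in every bipolar population. It had 195, 256 and 201 normalized counts in ON-BCs, 250, 218 and 247 in OFF-BCs and 232, 231 and 215 in pan-BCs. The 3 ranges overlapped, and the ON-BC mean was 91.2% of the OFF-BC mean (log2 fold change -0.14, SE 0.21, limma adjusted p = 1). Photoreceptors had less, with 30.3 to 48.5 normalized counts in rods and 31.1 to 38.4 in blue cones. The pan-BC mean was 5.43-fold that of rods (log2 fold change 2.44, limma adjusted p = 8.47e-06) and 6.41-fold that of blue cones (log2 fold change 2.65, limma adjusted p = 2.74e-06). Rods and blue cones overlapped.

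The auxiliary subunit genes differed from each other. Neto1 (plus strand of chr18:86394952-86505455) was divided between OFF-BCs and ON-BCs as Grik1 was. OFF-BC libraries had 225, 660 and 464 normalized counts of Neto1 and ON-BC libraries 6.19, 2.94 and 3.08, the latter on 12 reads in all. The fitted log2 fold change was -6.40 (SE 0.41, limma adjusted p = 8.02e-08), and the OFF-BC mean was 110-fold that of ON-BCs. In pan-BCs Neto1 had 166, 176 and 185 normalized counts, which is 39% of the OFF-BC mean. The library of OFF-BCs with the least Neto1 was the first, whereas that with the least Grik1 was the third, so that the spread of the 2 genes within OFF-BCs did not run together. Neto1 had no read in any photoreceptor library, which makes OFF-BCs at least 439-fold higher than rods and at least 599-fold higher than blue cones.

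Neto2 (minus strand of chr8:85636718-85700924) was scarce throughout. It had 15.7, 16.8 and 24.3 normalized counts in OFF-BCs, 11.4, 16.7 and 15.4 in ON-BCs and 12.8, 2.02 and 11.01 in pan-BCs. The OFF-BC and ON-BC ranges overlapped (log2 fold change -0.36, SE 0.62, limma adjusted p = 1). Rods had 0 to 2.05 and blue cones 0.752 to 5.31 normalized counts. OFF-BCs were higher than rods (log2 fold change 3.40, limma adjusted p = 0.00198) and than blue cones (log2 fold change 2.57, limma adjusted p = 0.0323). The second of these calls was lost without the second or the third OFF-BC library or without the first or the third blue cone library, with adjusted p of up to 0.142. Pan-BCs were not called different from rods (log2 fold change 2.1, limma adjusted p = 0.104), but were without the low second pan-BC library (log2 fold change 2.80, limma adjusted p = 0.0115).

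**Figure D1:**
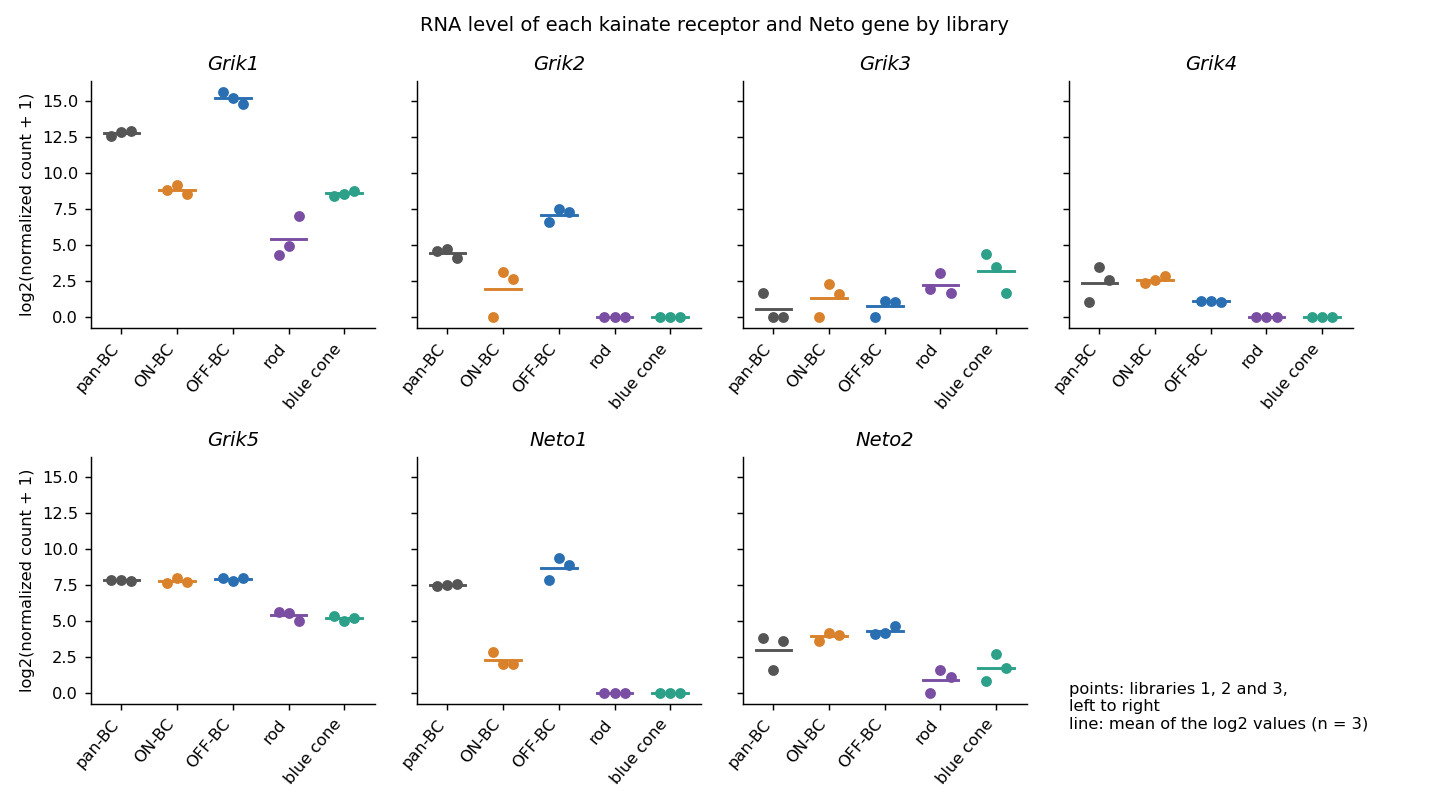
RNA level of the 7 genes in each of the 15 libraries, as log2(normalized count + 1), by population (points are libraries, lines are means of 3). Grik1, Grik2 and Neto1 are highest in OFF-BCs with no overlap with ON-BCs, Grik5 sits at close levels in the bipolar populations, and Grik3, Grik4 and Neto2 stay low.

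Counted over the 7 genes, 3 of the 5 tested were called between ON-BCs and OFF-BCs, where 6.55% of all genes tested were called in either direction. All 3 (Grik1, Grik2 and Neto1) were lower in ON-BCs, as were 3.6% of all genes tested. The median log2 fold change of the 5 was -5.18, beside -0.02 for all genes. Against rods, 4 of 5 were higher in pan-BCs, where 27.8% of all genes were called higher, and 5 of 5 were higher in OFF-BCs, where 27.1% were. Against blue cones, 4 of 5 were higher in pan-BCs (22.7% of all genes) and 5 of 5 in OFF-BCs (21.8% of all genes). Between rods and blue cones 1 of 5 was called, Grik1, lower in rods, as were 11.3% of all genes. The comparisons with rods and with blue cones share their bipolar libraries, and the pan-BC and OFF-BC comparisons share their photoreceptor libraries, so that these counts are not independent of each other. A member passed the filter on low counts only if some population expressed it, which bears on each of these counts.

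**Figure D2:**
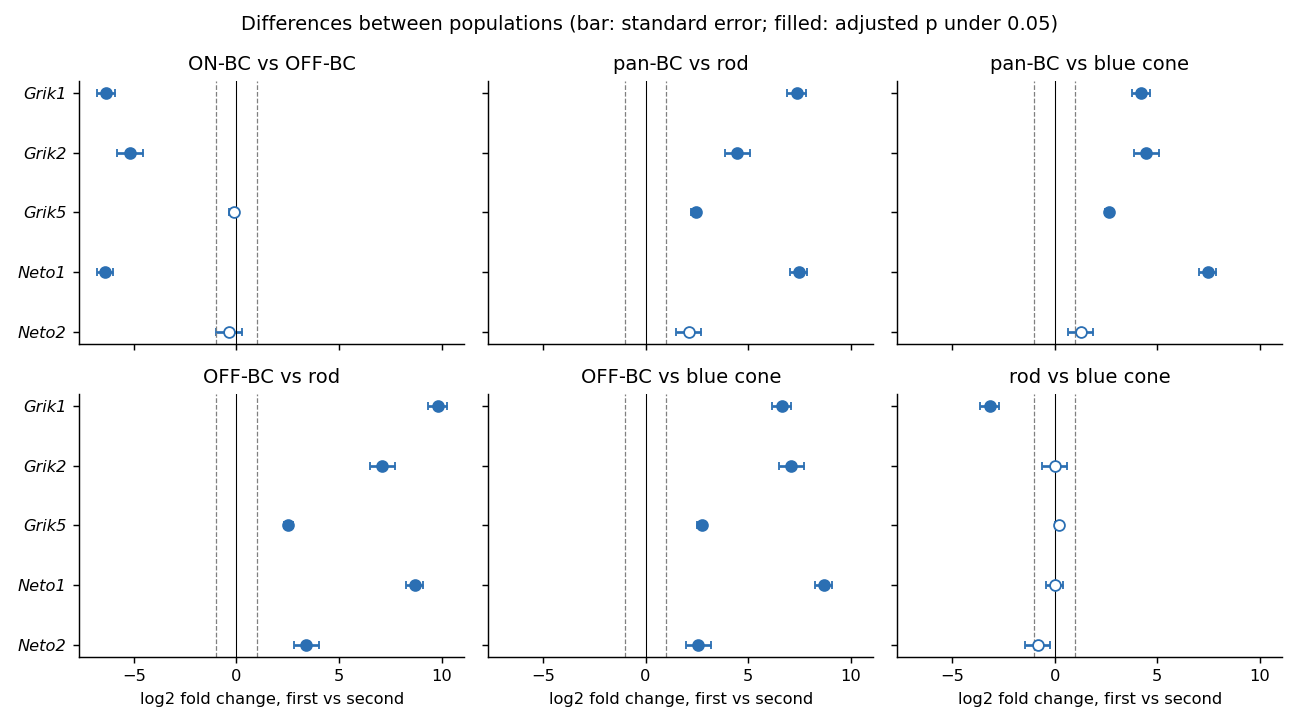
Fitted log2 fold change of the 5 tested genes in each of 6 comparisons (first population against second; bars are standard errors, filled points have a limma adjusted p under 0.05). Grik1, Grik2 and Neto1 lie far below 0 in ON-BC vs OFF-BC, at -6.35, -5.18 and -6.40, while Grik5 and Neto2 lie at -0.14 and -0.36.

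Per kb of exon, the order of the genes differed between the populations. In OFF-BCs Grik1 had 9539 ± 2666 normalized counts per kb (SD, n = 3), followed by Neto1 at 63.4 and Grik5 at 61.7, which overlapped, then Grik2 at 13.1 and Neto2 at 3.15. In ON-BCs Grik1 stood first at 115 ± 23.1 and Grik5 second at 56.2 ± 8.65, with no overlap, followed by Neto2 at 2.41 and Grik4 at 1.45. Neto1 and Grik2 came after these in ON-BCs, at 0.574 and 0.401, and overlapped. The pan-BC order was Grik1 at 1740, Grik5 at 58.5 and Neto1 at 24.7, with Grik2, Grik4 and Neto2 overlapping between 1.43 and 1.997. In rods Grik1 and Grik5 overlapped, at 14.7 ± 15.2 and 10.8 ± 2.57, while in blue cones Grik1 stood apart at 94.6 ± 10.7 over Grik5 at 9.12. Exon lengths are those of all RefSeq transcripts of a gene merged.

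As a share of the summed per-kb level of the 5 Grik genes, Grik1 made up 99.2% ± 0.259 in OFF-BCs, 96.5% ± 0.532 in pan-BCs and 66.3% ± 2.73 in ON-BCs (SD, n = 3). Grik5 made up most of the rest, at 0.675% in OFF-BCs and 32.5% in ON-BCs. Its level per kb was 61.7 and 56.2 in these populations, so that the larger share in ON-BCs went with the lower Grik1. In rods the Grik1 share ranged from 26% to 79.9% over the 3 libraries. The highest was in the library with the highest sums of the ON bipolar and of the OFF bipolar markers. The 2 Neto genes together came to 0.76% of the summed Grik level in OFF-BCs and to 1.75% in ON-BCs.

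The genes whose RNA pattern was most like that of each tested member were found by Pearson correlation of log2(normalized count + 1) over the 15 libraries, which share their populations, so that the values describe these libraries alone. Grik1 was most like Gng2 (r = 0.993), a G protein gamma subunit gene, Irx6 (r = 0.991), a homeobox gene of OFF-BCs, and Wfdc2 (r = 0.986). For Grik2 they were Nxph1 (r = 0.982), which encodes a neurexin ligand, BC030867 (r = 0.981) and Tnfrsf11a (r = 0.979). For Neto1 they were BC030500 (r = 0.993), Tekt1 (r = 0.989) and Postn (r = 0.988). All 9 had their highest mean in OFF-BCs, for instance 932 normalized counts of Gng2 beside 14.5 in ON-BCs and 427 of Postn beside 4.004. Grik5 was most like Mif (r = 0.991), BC018473 (r = 0.99) and Pcdh10 (r = 0.99), of which Mif had mean levels of 5887 in ON-BCs, 6558 in OFF-BCs and 287 in rods. The likeness was lower for Neto2, with 1700010I14Rik at r = 0.905.

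A list of 20 genes whose products bind, traffic or modify kainate receptors or Neto proteins was set beside the members. Of these, 19 were tested and 2 were called between ON-BCs and OFF-BCs, both higher in ON-BCs, beside 6.55% of all genes called in either direction, with a median log2 fold change over the 19 of 0.18. Prkca, protein kinase C alpha and a marker of rod bipolar cells, had 9037, 9025 and 6656 normalized counts in ON-BCs and 105, 66.1 and 533 in OFF-BCs (log2 fold change 5.71, SE 0.48, limma adjusted p = 1.86e-06). The highest OFF-BC value was again that of the third library. C1ql3, a secreted protein of the complement C1q-like family, had 12.4, 21.6 and 13.3 in ON-BCs and 1.12, 2.40 and 4.41 in OFF-BCs (log2 fold change 2.26, SE 0.35, limma adjusted p = 0.0211). The mean of C1ql3 was 214 in rods and 272 in blue cones. Its call was lost without the second ON-BC library and without the first or the second OFF-BC library, which left 1 partner called. The scaffold genes of the postsynaptic density did not pass, including Dlg2, whose ON-BC range of 1344 to 1415 lay above the OFF-BC range of 444 to 552 (log2 fold change 1.45, SE 0.28, limma adjusted p = 0.608).

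Among the partners, the scaffold gene Dlg4 had a log2 fold change of 0.18 between ON-BCs and OFF-BCs, the glutamate receptor interacting protein genes Grip1 and Grip2 had -0.78 and 0.89, and the PDZ protein gene Pick1 had 0.33. Nsf and Snap25, which act in vesicle fusion and receptor trafficking, had 0.02 and 0.39. None of these 6 passed. In the other comparisons, 9 of the 19 were called between pan-BCs and rods (6 higher in pan-BCs and 3 lower), beside 43.6% of all genes, and 11 between pan-BCs and blue cones (8 and 3), beside 36.3%. Between rods and blue cones 3 were called (2 higher in rods and 1 lower), beside 15.9% of all genes. Between OFF-BCs and rods 11 were called, beside 42.6%, and 11 between OFF-BCs and blue cones, beside 35.5%, each with 7 higher in OFF-BCs and 4 lower.

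**Figure D3:**
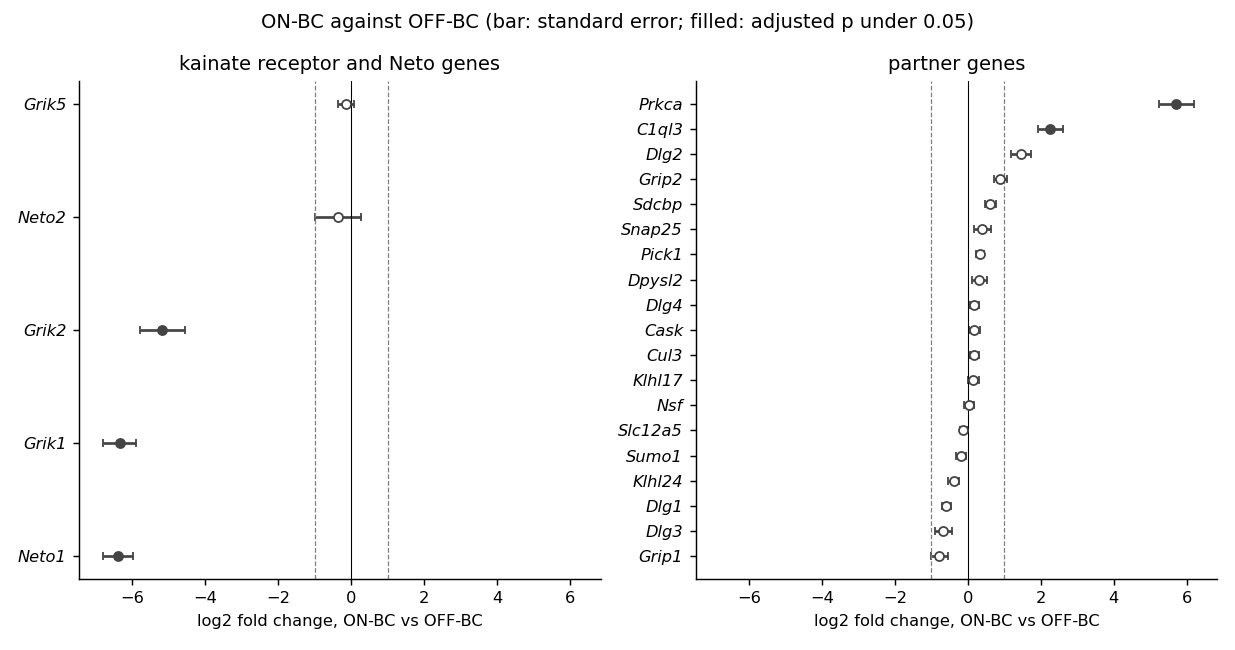
Fitted log2 fold change of ON-BCs against OFF-BCs for the kainate receptor and Neto genes and for the 19 tested partner genes (bars are standard errors, filled points have a limma adjusted p under 0.05). Prkca at 5.71 and C1ql3 at 2.26 are the filled partner points, both on the ON-BC side, and the filled members are all on the OFF-BC side.

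Open chromatin was examined in 200 bp regions of the authors' ATAC-seq table, with 4176776 to 12345845 counted reads per library. Of its 110715 regions, 66 had the start site of one of the 7 genes as their nearest RefSeq start site and 64 of these were tested. Between ON-BCs and OFF-BCs, 7 of the 64 were called (10.9%), where 7.39% of all 108448 regions tested were called. Of these, 3 were more accessible in ON-BCs and 4 in OFF-BCs. Pan-BCs and rods differed at 42 of 64 regions (65.6%, of which 40 were higher in pan-BCs), beside 51.6% of all regions. Pan-BCs and blue cones differed at 38 (59.4%, 34 higher in pan-BCs), beside 35.9% of all regions (28.8% higher in pan-BCs). Rods and blue cones differed at 6 (9.38%, all lower in rods), beside 10% of all regions.

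Long genes such as Grik1 hold regions whose nearest start site is another gene's. When regions anywhere in a gene or within 10 kb before it were added, 113 regions were tested. Of these, 9 were called between ON-BCs and OFF-BCs (7.96%), close to the 7.39% of all regions. Grik1 accounted for 18 of these regions, and all 18 were more accessible in pan-BCs than in rods, where 40.3% of all regions were. Grik1 had 3 regions that were called between ON-BCs and OFF-BCs, and at each of them the ON-BCs, whose Grik1 RNA was 1.21% of that in OFF-BCs, were the more accessible, as they were at 4.58% of all regions. Grik2, whose RNA was likewise lower in ON-BCs, had 17 regions, of which 2 were more accessible in ON-BCs and 1 in OFF-BCs, the latter being the direction of 2.8% of all regions. No region was called between ON-BCs and OFF-BCs at Grik5, Neto1 or Neto2, with 18 tested regions between them.

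The strongest of these regions lay within Grik1, 129266 bp from its start site. It had 82.1 and 90.8 normalized counts in ON-BCs, 44.8 and 55.9 in pan-BCs, and 0 in both OFF-BC libraries and in all 6 photoreceptor libraries. Against a floor of 3 reads over the OFF-BC libraries, ON-BCs were at least 51.0-fold higher (fitted log2 fold change 6.45, SE 0.68, limma adjusted p = 9.07e-05). The authors' peak caller had a peak there in both ON-BC and both pan-BC libraries, with fold enrichments of 10.6 to 13.1, and in none of the other libraries. The call held in each of 11 alternative fits, with the leave-one-out log2 fold change from 6.38 to 6.52. It was the only one of the 9 regions called for which this was so.

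The other called regions had lower counts. The Grik1 region at -94305 bp, before the start site, had 76.2 and 58.6 in ON-BCs and 5.39 and 0 in OFF-BCs (log2 fold change 4.75, SE 1.05, limma adjusted p = 0.0212), and the intronic one at 243368 bp had 32.9 and 22.0 against 0 and 1.95 (4.02, SE 0.90, limma adjusted p = 0.0299). In Grik2, the intronic region at 55904 bp had 62.7 and 32.2 in ON-BCs and 5.39 and 1.95 in OFF-BCs (log2 fold change 3.41, SE 0.76, limma adjusted p = 0.0408). The one at 245403 bp had 35.8 and 36.6 against 0 and 3.89 (log2 fold change 4.07, SE 1.00, limma adjusted p = 0.0462). All 4 had 0 to 7.77 normalized counts in every photoreceptor library. The call at -94305 bp was lost without either ON-BC library or without the second OFF-BC library, and those at 243368 bp and 245403 bp without either ON-BC library or without the first OFF-BC library. That at 55904 bp was lost without any one of the 4, and over these fits the adjusted p of the 4 regions reached 0.419. The log2 fold change at -94305 bp was 3.41 without the second OFF-BC library and 6.08 without the first. Without the first and the second OFF-BC library, respectively, it was 3.24 and 4.80 at 243368 bp, 2.93 and 5.22 at 245403 bp, and 3.96 and 2.85 at 55904 bp.

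Regions more accessible in OFF-BCs were found at Grik3 and Grik4, whose RNA was near 0, and 1675601 bp from the start of Grik2. The intronic region of Grik3 at 4512 bp had 18.9 and 31.2 in OFF-BCs and 0 in both ON-BC libraries (log2 fold change -4.66, SE 0.81, limma adjusted p = 0.00538). Rods had 24.9 and 32.5 there, and blue cones 19.4 and 34.0. The region at -38545 bp, before Grik3, had 24.3 and 30.2 in OFF-BCs and 2.99 and 2.93 in ON-BCs (log2 fold change -2.83, limma adjusted p = 0.029). The one at -57937 bp, before Grik4 and within Arhgef12, had 10.8 and 9.74 in OFF-BCs, 0 in ON-BCs and 43.6 and 38.0 in rods (log2 fold change -3.49, limma adjusted p = 0.0113). At the distant Grik2 region OFF-BCs had 35.0 and 17.5 and ON-BCs 0 and 2.93 (log2 fold change -3.70, limma adjusted p = 0.038). The calls at -38545 bp and at the distant Grik2 region were lost in 4 and 3 of the 4 fits that left out 1 library, that at 4512 bp without the second OFF-BC library (log2 fold change -4.31) and that at -57937 bp without the first (log2 fold change -3.42). At the distant Grik2 region the log2 fold change was -2.72 without the first ON-BC library and -4.69 without the second. The authors' peak caller had a peak at -38545 bp in both OFF-BC libraries and at the distant Grik2 region in 1. At 4512 bp and -57937 bp it had a peak in neither OFF-BC library but in both rod libraries. All but the distant Grik2 region had peaks in photoreceptor libraries, and the RNA libraries of OFF-BCs carried more cone marker RNA than those of ON-BCs. The cone marker sums of pan-BCs, at 44347 to 70432, were above those of the first and second OFF-BC libraries (34435 and 29244) and below the third (103211). Mean accessibility in pan-BCs was 4.8 at 4512 bp, 2.17 at -57937 bp and 14.9 at -38545 bp. The OFF-BC means there were 25.01, 10.26 and 27.21. RNA and ATAC-seq libraries were separate samples. The part of admixed cones in these regions was not tested.

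**Figure D4:**
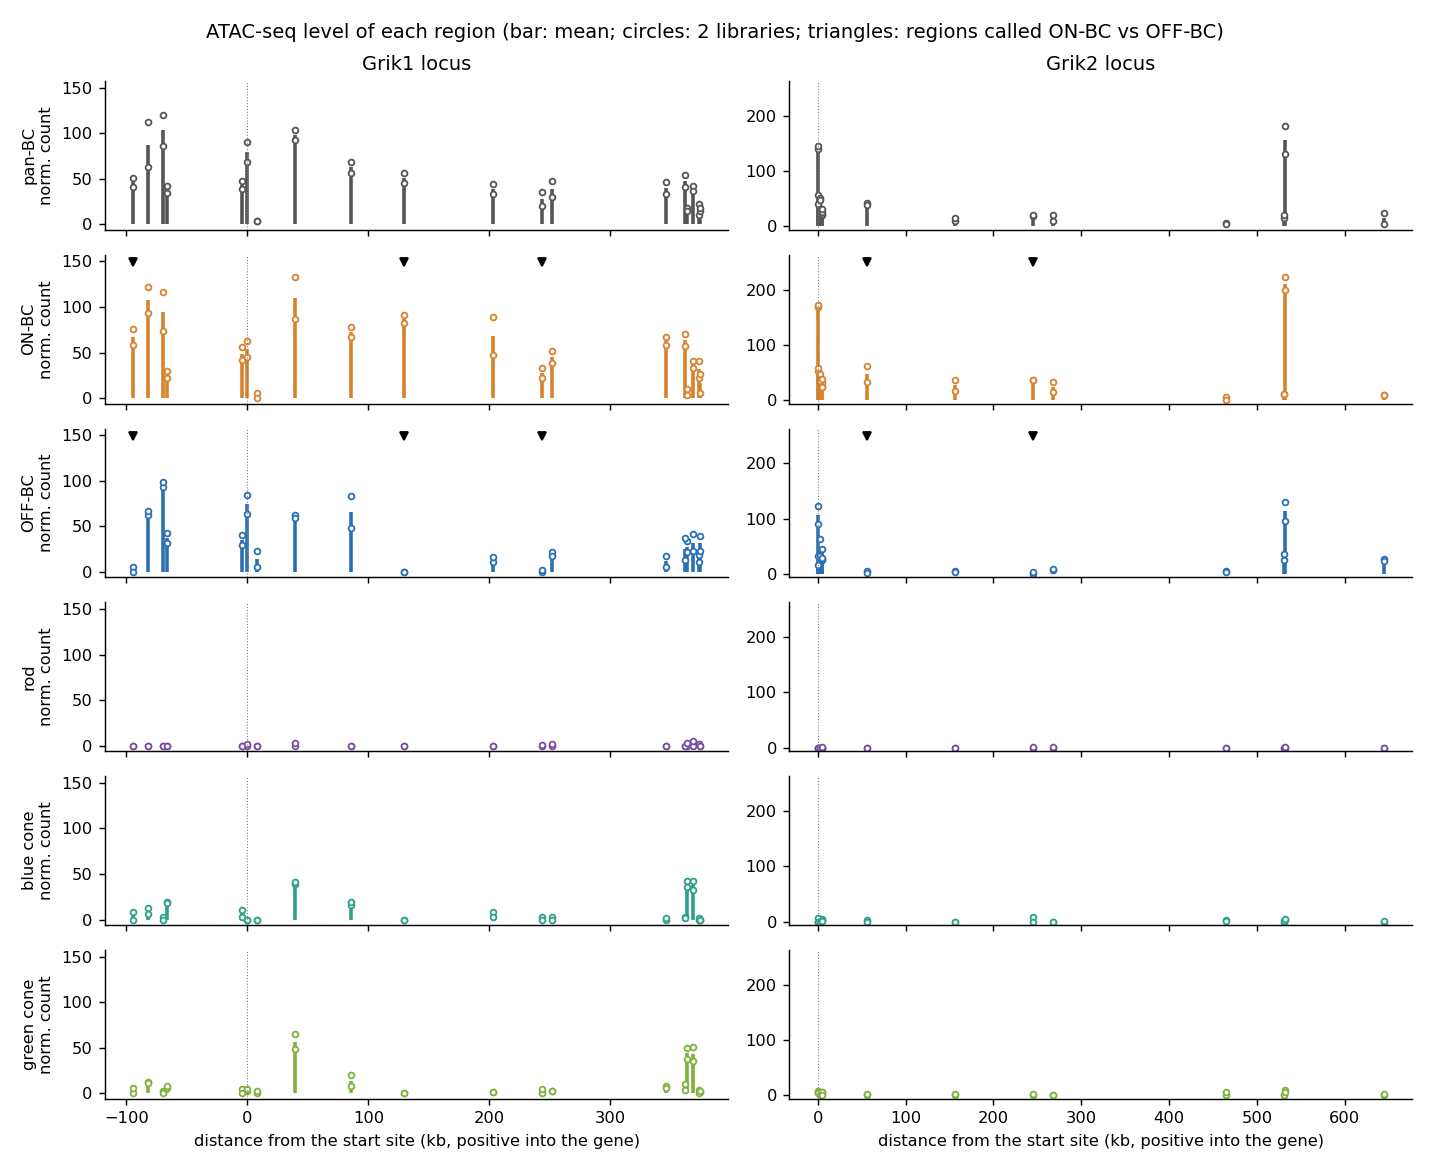
ATAC-seq normalized counts of every region at the Grik1 and Grik2 loci by distance from the start site in kb, 1 row of panels for each of 6 populations (bars are means, circles the 2 libraries, triangles the regions called between ON-BCs and OFF-BCs). The Grik1 region 129266 bp into the gene stands at 82.1 and 90.8 in ON-BCs and at 0 in OFF-BCs and photoreceptors, while the regions at the start sites are open in both ON-BCs and OFF-BCs.

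The sequences of the called upstream region of Grik1 and of the called intronic regions of Grik1, Grik2 and Grik3 are printed. They are DNA at which ON-BCs and OFF-BCs differed, and the Grik2 promoter is printed because it was open in both. The called regions before Grik3 and Grik4 and the distant Grik2 region are not printed. They are from GRCm38, and were searched on both strands for TAATCC, the homeodomain motif preferred by CRX and OTX2, for the homeodomain motifs TAATTA and TAATTG and for the E-box CANNTG. Matches are in capitals and none overlap. Regions are on the plus strand: Grik1 -94305 is chr16:88384421-88384620, Grik1 129266 is chr16:88160850-88161049, Grik1 243368 is chr16:88046748-88046947, Grik2 55904 is chr10:49731910-49732109, Grik2 245403 is chr10:49542411-49542610 and Grik3 4512 is chr4:125495108-125495307, each named by its distance in bp from the start site. The Grik2 promoter is RefSeq's, on the minus strand of chr10:49788705-49789004.
Grik1 -94305: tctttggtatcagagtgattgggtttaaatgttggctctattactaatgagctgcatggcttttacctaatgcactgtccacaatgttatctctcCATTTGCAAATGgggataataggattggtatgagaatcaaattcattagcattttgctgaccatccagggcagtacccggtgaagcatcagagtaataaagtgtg
Grik1 129266: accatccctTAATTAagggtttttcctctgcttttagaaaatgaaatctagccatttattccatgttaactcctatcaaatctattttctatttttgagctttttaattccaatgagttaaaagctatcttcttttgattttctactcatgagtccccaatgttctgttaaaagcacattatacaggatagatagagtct
Grik1 243368: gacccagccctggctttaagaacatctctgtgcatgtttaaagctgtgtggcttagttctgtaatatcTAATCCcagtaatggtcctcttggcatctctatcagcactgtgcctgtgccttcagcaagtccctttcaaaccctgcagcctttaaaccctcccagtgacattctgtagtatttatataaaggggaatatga
Grik2 55904: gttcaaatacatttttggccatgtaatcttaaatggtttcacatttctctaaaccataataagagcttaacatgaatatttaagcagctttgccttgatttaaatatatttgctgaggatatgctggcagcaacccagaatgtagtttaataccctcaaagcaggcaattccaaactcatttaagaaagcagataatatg
Grik2 245403: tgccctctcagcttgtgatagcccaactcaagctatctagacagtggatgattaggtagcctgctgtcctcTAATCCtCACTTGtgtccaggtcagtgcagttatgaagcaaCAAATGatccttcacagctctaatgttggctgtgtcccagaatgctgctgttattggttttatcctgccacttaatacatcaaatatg
Grik3 4512: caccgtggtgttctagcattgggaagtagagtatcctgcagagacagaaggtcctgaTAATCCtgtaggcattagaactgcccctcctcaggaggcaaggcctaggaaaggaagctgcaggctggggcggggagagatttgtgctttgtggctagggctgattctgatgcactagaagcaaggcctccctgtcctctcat
Grik2 promoter: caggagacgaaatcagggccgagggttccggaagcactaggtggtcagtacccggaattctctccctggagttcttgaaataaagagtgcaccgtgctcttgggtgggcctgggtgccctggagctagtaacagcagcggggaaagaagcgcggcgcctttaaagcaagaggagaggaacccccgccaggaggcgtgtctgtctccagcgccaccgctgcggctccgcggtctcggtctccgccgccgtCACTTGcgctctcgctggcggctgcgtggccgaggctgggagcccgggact

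The Grik1 region open in ON-BCs but not in OFF-BCs, at 129266 bp, held 1 TAATTA and none of the other motifs. TAATTA was present in 5.2% of all 110715 regions, TAATTG in 6.9%, TAATCC in 21.8% and CANNTG in 68.7%. The Grik1 region at 243368 bp and the Grik3 region at 4512 bp each held 1 TAATCC, and the upstream Grik1 region held 2 E-boxes side by side, CATTTG and CAAATG. The Grik2 region at 245403 bp held 1 TAATCC and 2 E-boxes, and that at 55904 bp held none of the motifs. The Grik2 promoter held 1 E-box, CACTTG, as the motif was found in 72.3% of 32851 RefSeq promoters of the same 300 bp length, beside 7.1% for TAATCC, 5.3% for TAATTA and 8.0% for TAATTG. These are matches of letters, which do not show binding. In all, 5 of the 7 genes were found in the RefSeq promoter table, where Grik1 and Neto1 had no entry.

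At the most accessible region of each promoter, none of the 7 genes was called between ON-BCs and OFF-BCs. The Grik1 promoter had 44.8 and 63.0 normalized counts in ON-BCs and 63.3 and 84.7 in OFF-BCs (log2 fold change -0.46, SE 0.60, limma adjusted p = 1), against an RNA log2 fold change of -6.35. The Grik2 promoter had 169 and 173 in ON-BCs and 123 and 89.6 in OFF-BCs (log2 fold change 0.70, SE 0.64, limma adjusted p = 1). The Neto1 promoter had 26.9 and 23.4 in ON-BCs and 48.5 and 38.9 in OFF-BCs (log2 fold change -0.77, SE 0.64, limma adjusted p = 1), and a peak was called there in both OFF-BC and both pan-BC libraries and in neither ON-BC library. An adjusted p of 1 does not show that these promoters were equally open.

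The promoters of Grik1, Grik2, Grik5 and Neto1 were called higher in pan-BCs than in rods and than in blue cones. Of all regions, 40.3% and 28.8% were called higher in pan-BCs in these comparisons. The median log2 fold change of all regions was 1.16 over rods and 0.54 over blue cones. The Grik1 promoter had 68.8 and 90.7 normalized counts in pan-BCs, 0 and 1.36 in rods and 0 in both blue cone libraries (pan-BCs against rods, log2 fold change 5.70, limma adjusted p = 2.54e-06). The Grik2 promoter had 139 and 146 in pan-BCs, 0 in both rod libraries and 0 and 5.78 in blue cones, and Neto1 and Grik5 were called in the same direction in both comparisons. The Neto2 promoter was open everywhere, with 81.8 to 112 in all 12 libraries, although Neto2 RNA was scarce. The Grik3 promoter was most open in cones, at 40.2 and 47.7 in blue cones against 5.97 and 2.93 in ON-BCs. The Grik4 promoter was open in bipolar cells at 61.6 to 83.6 and in blue cones at 59.6 and 60.7, with 20.3 and 23.0 in rods. The log2 fold change of pan-BCs against rods was 1.66 (limma adjusted p = 0.0498), beside the median of 1.16 for all regions. Rods and blue cones were not called different at this promoter (log2 fold change -1.44, limma adjusted p = 0.417).

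**Figure D5:**
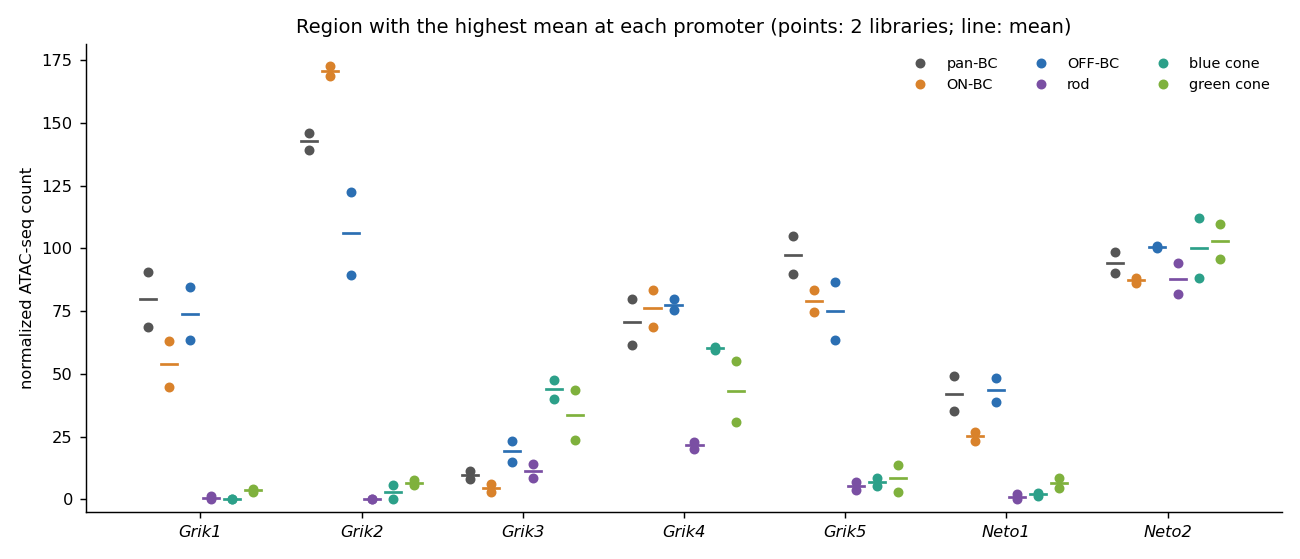
ATAC-seq normalized counts at the most accessible promoter region of each of the 7 genes in 6 populations (points are the 2 libraries of a population, lines their mean). The Grik1, Grik2, Grik5 and Neto1 promoters have higher values in all 3 bipolar populations than in photoreceptors, which lie at 0 to 13.8, and the Neto2 promoter is open in all, at 81.8 to 112.

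Blue cones differed from rods at 6 of the 18 Grik1 regions, all less accessible in rods, where 8.56% of all regions were called less accessible in rods. The intronic region 39009 bp into the gene had 38.9 and 41.2 normalized counts in blue cones and 0 and 2.71 in rods, with 48.4 and 64.8 in green cones (rods against blue cones, log2 fold change -4.41, SE 0.46, limma adjusted p = 3e-05). It was open in bipolar cells too, at 59.4 to 133. The region at 363592 bp was at least as open in cones, with blue cone values of 42.7 and 35.4 and green cone values of 49.9 and 38.0, as in OFF-BCs, at 33.7 and 21.4, and rods had 0 and 2.71 (log2 fold change -4.37, SE 0.65, limma adjusted p = 0.000983). The region at the start site had no read in either blue cone library. RNA and ATAC-seq libraries were separate samples, so that the bipolar markers found in the blue cone RNA do not measure admixture in the ATAC-seq libraries.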

How the data were processed

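RNA-seq and ATAC-seq libraries of FACS-purified mouse retinal cells were analysed from the deposited tables. Per the study's methods and the labels' processing notes, the authors aligned 50 bp RNA reads with STAR 2.7.0d and counted them per RefSeq gene with HTSeq 1.9, aligned ATAC-seq reads to mm10 (GRCm38) with Bowtie2 (2.2.5 in the processing notes, where the methods give another version) and called peaks per library with MACS2 2.1.1. The deposited signal values of both tables are counts that the authors divided by 1 size factor per library: 100.0% of values came back as whole reads within 0.01. The authors' peak files give fold enrichment over the local background, which was copied, and −log10 q values as deposited, which were not filtered further.

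Values were tested as log2(value + 1) with limma 3.58.1 (treat, log2 fold change of 1, trended prior, R 4.3.3) over all 15 RNA or 12 ATAC-seq libraries, after edgeR 4.0.16's filter on low counts, with Benjamini-Hochberg adjustment over 14024 genes or 108448 regions and a threshold of 0.05. Alternatives were TMM factors, library totals (RNA), pseudocounts of 0.1 (RNA) and 10, no filter, a filter of 100 reads in 3 libraries (RNA), a test against no change, edgeR, DESeq2 1.42.0, fits of the populations compared alone (RNA), a replicate block and leaving out each library. The fits were tested on simulated data. Regions belong to the gene with the nearest RefSeq start site, and those in a gene or up to 10000 bp before it were added where stated. A promoter region lies within 1000 bp before to 100 bp after a start site.

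The members, the partner and marker lists and the tests were chosen with earlier results of these data known. The list of general bipolar cell markers is not reported here. Named were all 7 members, the partners called between ON-BCs and OFF-BCs (with other partners chosen after their values were seen), the 3 genes most correlated with each tested member, the regions called between ON-BCs and OFF-BCs, and the top region of each promoter. The Grik1 regions described between rods and blue cones were chosen after their values were seen. Depth limits the scarce genes: floors of 3 reads cover counting error only. Peaks of 2 double-sorted green cone libraries entered peak counts alone.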

Additional observations from a re-analysis of the deposited data

How the results depend on the processing

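No result changed its direction under any alternative. Among the tests of single genes and regions, 544 of the values under an alternative stayed on the same side of the threshold, 44 lost the call and 5 gained one. Grik1, Grik2, Grik5 and Neto1 kept every call they had in the fits that tested them. With a filter of 100 reads in 3 libraries only 3 members were tested, since Grik2 and Neto2 had too few reads. Then 3 rather than 5 were called between OFF-BCs and rods and between OFF-BCs and blue cones. Between ON-BCs and OFF-BCs 2 rather than 3 were called, and between pan-BCs and rods or blue cones 3 rather than 4. Neto2 was the member whose calls moved: pan-BCs against rods passed with a pseudocount of 0.1 (adjusted p = 0.0456), in edgeR's test of the same fold (0.0277), in its F test (0.00803) and with limma against no change (0.00538), and OFF-BCs against rods was lost with a pseudocount of 10 (0.158). OFF-BCs against blue cones was lost with pseudocounts of 0.1 (0.0931) and 10 (0.557) and in DESeq2 (0.0741). The cause was not tested.

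The 2 partners called between ON-BCs and OFF-BCs became 1 with a pseudocount of 10 and in DESeq2, 9 with limma against no change and 9 in edgeR's F test, and 1 to 2 when 1 library was left out. Of the regions called between ON-BCs and OFF-BCs, 7 became 4 with a pseudocount of 10, 15 against no change, 1 in DESeq2 and 2 to 3 when 1 library was left out. The 38 called between pan-BCs and blue cones became 24 with a pseudocount of 10. The 6 called between rods and blue cones became 0 with a pseudocount of 10, 14 against no change, 11 in edgeR's test of the same fold and 3 in DESeq2. Of the 9 regions named, 3 lost their calls with TMM factors: those at 243368 bp of Grik1 (adjusted p = 0.0532) and at 55904 bp (0.0753) and 245403 bp (0.0796) of Grik2. TMM factors moved the median log2 fold change of all regions by -0.21 between ON-BCs and OFF-BCs, by -0.18 between pan-BCs and rods and by -0.27 between pan-BCs and blue cones, and lowered the share of called regions higher in ON-BCs from 62.1% to 51.6%. Library totals moved the median of all genes by 0.28 to 0.35 between bipolar cells and photoreceptors and changed no member's call.

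Libraries of ON-BCs and OFF-BCs with the same number were of 1 genotype and of equal age (postnatal days 43, 48 and 42 for RNA, 42 and 46 for ATAC-seq), but the labels name no shared mouse, litter or sort. They did not all deviate together in the RNA table (r = -0.076, 0.222 and -0.065), and not every library correlated best with its own number, so that the numbers were not taken to pair them. With the replicate block, 3 members were called between ON-BCs and OFF-BCs as without it, 919 genes were called in all, and 7 regions at the members were called. It changed no member's call.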
